A study of Homo sapiens with 6 samples.

Results

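The 9 genes described here are complement components and complement regulators that tumour cells can make, among 62700 genes in the deposited table. They were chosen by symbol: the components C3, CFB, C1R and C1S, the fluid-phase regulators CFI and SERPING1, and the membrane regulators CD46, CD55 and CD59. RNA was sequenced from PC3, a human cell line derived from a prostate cancer metastasis. The 3 TTC3 shRNA libraries carried a short hairpin RNA against TTC3 and are labelled as a TTC3 knockdown, and the 3 control shRNA libraries are labelled wild type. TTC3 encodes a ubiquitin ligase. All 6 libraries were made from total RNA after removal of ribosomal RNA, with cells grown alike per the labels. The labels do not say that the libraries came from separate cultures or how many hairpins or clones were used. The p-values therefore rest on library-to-library spread alone, and that spread may be technical.

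Complement is a cascade of proteases and binding proteins that marks a surface with fragments of C3 and can end in a membrane pore. The classical pathway begins when the protease C1r activates the protease C1s. The alternative pathway uses factor B, the product of CFB, to build an enzyme that cuts more C3. Cells hold the cascade back with SERPING1 (C1 inhibitor), with factor I (CFI), which cuts C3b, and with membrane proteins. CD46 is a cofactor for factor I, CD55 speeds the decay of the enzymes that cut C3, and CD59 blocks assembly of the pore. Liver makes most plasma complement, and epithelial cells make smaller amounts.

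TTC3 itself was at 228, 183 and 178 CPM (counts scaled to library size, with TMM factors) in TTC3 shRNA libraries, against 695, 684 and 680.3 CPM in control libraries. The TTC3 shRNA mean was 28.6% of control (edgeR quasi-likelihood adjusted p = 5.65e-05). Gene counts summed to 144655100 to 155526861 per TTC3 shRNA library and 143246356 to 154832203 per control library. The libraries differed in RNA makeup: 7SL, 7SK and related small RNAs took 6.04%, 10.6% and 12.6% of counts in TTC3 shRNA replicates 1, 2 and 3, against 7.07% to 7.79% in control libraries. Mitochondrially encoded genes took 6.29%, 3.73% and 3.54% in the same TTC3 shRNA replicates, against 5.29% to 5.53% in control libraries, so TTC3 shRNA replicate 1 stood apart from the others of its group. The epithelial keratins KRT8 and KRT18 averaged 166 and 236 CPM in TTC3 shRNA cells, against 165 and 163 CPM in control cells, and the prostate secretory genes KLK3 and KLK2 had 0 counts in all 6 libraries.

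Of the 9 genes, 6 were lower in TTC3 shRNA cells, 0 were higher, 1 did not pass the test and 2 had too few counts to be tested. The call was an edgeR adjusted p below 0.05 over all 24325 tested genes, where 17.8% were called lower and 15.7% higher. At an unadjusted p below 0.05 edgeR gave 6 lower and 0 higher, and DESeq2 and limma-voom also gave 0 higher. The share of all genes at an unadjusted p below 0.05 was not computed. The 6 falls were of very different size: CFB was given no counts, C3 was at 36.2% of control, and C1R, C1S, CD46 and CD59 were at 66.6% to 81.2% of control. The TTC3 shRNA libraries lay below all control libraries for these 6 genes, as they did for 27.0% of the tested genes, with 50.3% not overlapping in either direction. The median log2 fold change of the 7 tested members was -0.46, also with CFB at its bound, beside -0.02 over all tested genes. The count of 6 fell to 3 without control replicate 2, and to 1 (CFB) when tested against a fold of 1.5. In bulk RNA, fewer cells with a transcript and less of it per cell cannot be told apart.

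**Figure D1:**
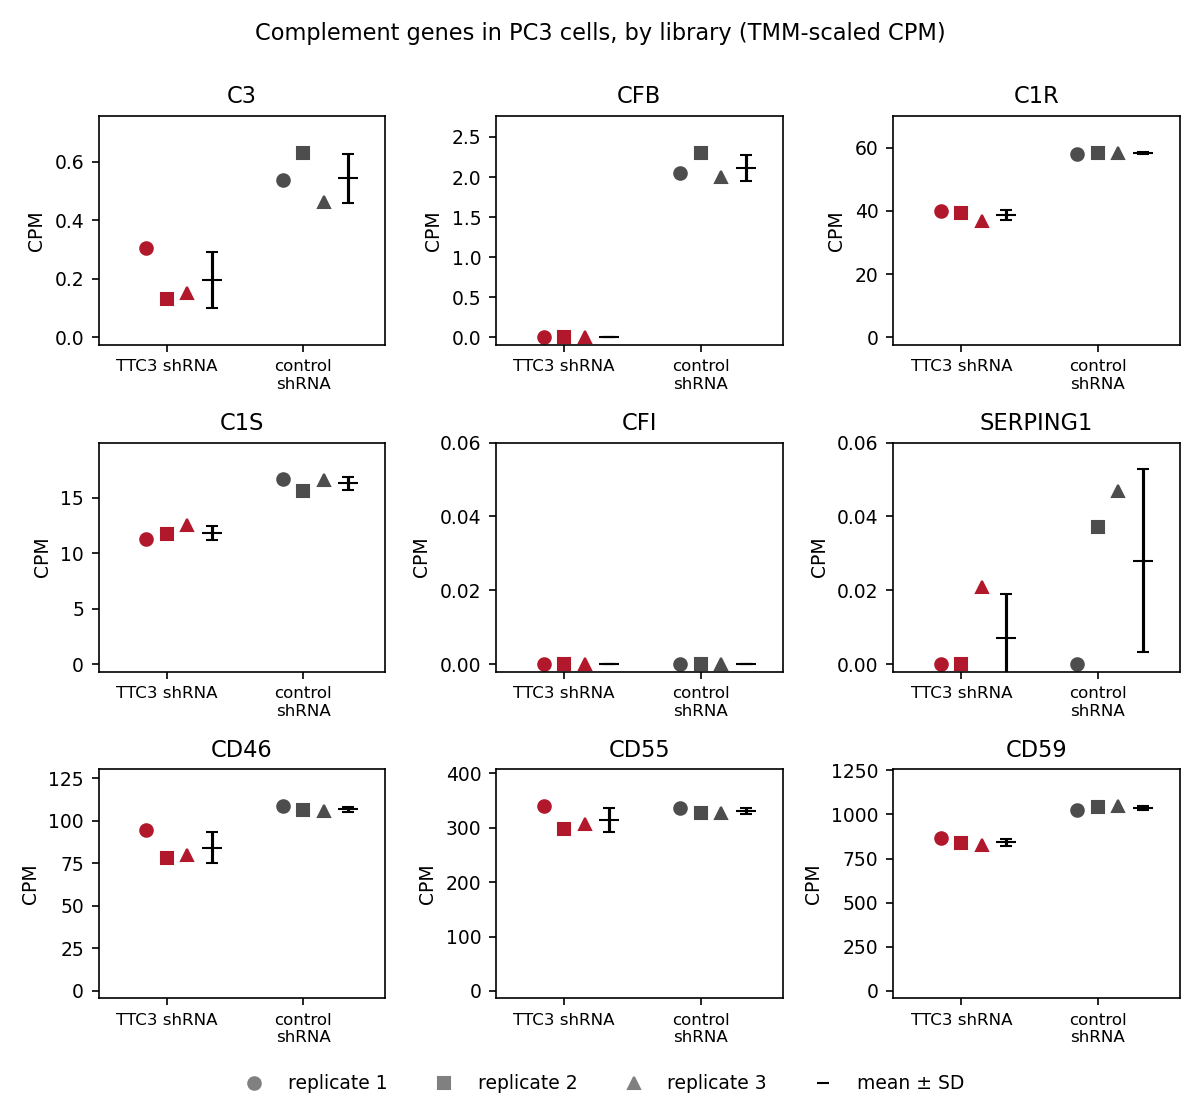
CPM of each of the 9 genes (y axis, from 0, a scale for each gene) in the 3 TTC3 shRNA libraries (red, left) and the 3 control shRNA libraries (grey, right), with symbols for replicates and bars for the mean ± SD. CFB was at 0 in all 3 TTC3 shRNA libraries, CFI was at 0 in all 6, and the groups overlapped for CD55 and SERPING1.

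CFB, factor B of the alternative pathway (ENSG00000243649.10, hg38 chromosome 6, 31945650 to 31952084, plus strand), showed the largest difference of the 9 genes. The estimated counts of CFB were 0, 0 and 0 in TTC3 shRNA libraries, against 328, 372 and 299 in control libraries. No TTC3 shRNA library held a count assigned to CFB, while every control library held about the same level, 2.12 ± 0.163 CPM (SD, n = 3). With a floor of 3 counts over the TTC3 shRNA group, which covers counting error only, CFB was at least 305-fold lower as the reads were assigned (edgeR adjusted p = 6.37e-05). ENSG00000244255, a gene on the same strand whose span (31927698 to 31952048) covers nearly all of CFB, held 29, 26 and 0 counts in TTC3 shRNA libraries, against 0, 0 and 0 in control libraries. With these counts added to CFB, a setting chosen after seeing the data, CFB was at 0.127 ± 0.110 CPM in TTC3 shRNA cells and 2.12 ± 0.163 CPM in control cells (SD, n = 3 each). That is 16.6-fold lower, with a log2 fold change of -4.05 ± 0.77 (± SE; edgeR adjusted p = 0.00757). The absence of counts and the 305-fold bound therefore rest on how reads were divided between these overlapping genes, while the call of CFB as lower does not. All CFB counts were given to the transcript CFB-271 (ENST00000425368.7). GENCODE 29 holds another version of this transcript, 2862 bases long. CFB-271 also passed the edgeR test over all transcripts (adjusted p = 0.00874), where 3.99% of 53805 were called and 2.60% were called lower. In GENCODE 29, C2, the classical pathway relative of CFB, ends 23 bases inside the CFB span on the same strand. C2 did not pass the test: it was at 1.17 ± 0.301 CPM in TTC3 shRNA cells and 1.48 ± 0.228 CPM in control cells (SD, n = 3 each; adjusted p = 0.284). Of 15 tested genes within 100 kb of CFB, 4 were called lower and 1 higher, beside 17.8% lower and 15.7% higher over all tested genes. Those called lower near CFB were SLC44A4, TNXA, TNXB and the antisense RNA C2-AS1, and EHMT2 was called higher. SLC44A4 fell most of these, at 0.0590 ± 0.0519 CPM in TTC3 shRNA cells and 0.889 ± 0.197 CPM in control cells (edgeR adjusted p = 0.00644). C2-AS1, the nearest of them to CFB, was at 0.0366 ± 0.0191 CPM in TTC3 shRNA cells and 0.151 ± 0.0721 CPM in control cells (adjusted p = 0.0406). Reads of overlapping or antisense genes are uncertain because the sources used here do not say whether counting used the strand.

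The promoters of 3 members are shown to let the start regions be compared: CFB, with the largest fall, C1R, whose fall had the smallest SE relative to its size among members with counts in both groups, and CD55, the only tested member that did not pass. Each runs from 250 bases before the RefSeq start to 50 bases after it (GRCh38.p14), 5′ to 3′ on the strand of the gene, and capitals mark matches on either strand to any of 4 patterns. These were a core of the interferon-stimulated response element (GAAA, any 2 bases, GAAA), the gamma-activated site (TTCNNNGAA), a loose NF-kappaB pattern (GGG, any 5 bases, CC) and the TATA box (TATAAA).
CFB, chr6:31945845-31946144, plus strand: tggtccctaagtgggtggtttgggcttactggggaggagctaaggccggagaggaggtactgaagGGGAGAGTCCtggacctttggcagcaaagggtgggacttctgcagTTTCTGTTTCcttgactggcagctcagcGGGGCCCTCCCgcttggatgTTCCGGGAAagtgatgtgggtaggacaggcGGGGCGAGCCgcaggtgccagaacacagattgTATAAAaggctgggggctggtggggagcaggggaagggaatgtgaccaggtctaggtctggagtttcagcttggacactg
C1R, chr12:7092396-7092695, minus strand: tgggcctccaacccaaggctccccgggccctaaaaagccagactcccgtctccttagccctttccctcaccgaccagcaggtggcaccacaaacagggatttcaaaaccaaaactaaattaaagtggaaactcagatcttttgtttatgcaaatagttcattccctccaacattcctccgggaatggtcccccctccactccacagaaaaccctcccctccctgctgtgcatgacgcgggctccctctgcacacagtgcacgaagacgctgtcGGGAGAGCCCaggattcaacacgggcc
CD55, chr1:207321428-207321727, plus strand: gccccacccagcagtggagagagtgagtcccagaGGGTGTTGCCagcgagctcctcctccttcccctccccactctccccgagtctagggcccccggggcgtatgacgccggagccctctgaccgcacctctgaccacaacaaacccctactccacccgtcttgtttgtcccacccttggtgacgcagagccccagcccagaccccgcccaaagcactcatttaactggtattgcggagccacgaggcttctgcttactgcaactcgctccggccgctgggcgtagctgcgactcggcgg

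The CFB promoter held all 4 patterns: the response element core at position -140, the gamma-activated site at -92, the TATA box at -30 (first base, relative to the start) and 4 NF-kappaB matches, 2 of which overlap. The C1R and CD55 promoters shown held 1 match each, to the loose NF-kappaB pattern. A second C1R promoter in the table, chr12:7091844-7092143, held a gamma-activated site match at -86 and an NF-kappaB match at -185. Over 35116 promoters of the same length, 3.57% held the response element core, 7.66% the gamma-activated site, 58.7% the loose NF-kappaB pattern and 11.5% the TATA box. RefSeq promoters were found for 6 of the 9 members, 11 promoters in all, of which 1 held the response element core, 4 the gamma-activated site, 9 the loose NF-kappaB pattern and 1 the TATA box. Some of these windows overlap: the 2 CD46 windows hold the same NF-kappaB matches, and 2 of the CD59 windows hold the same gamma-activated site. The counts are therefore of windows and not of separate sites. C3, C1S and SERPING1 had no promoter in the table. The CFB and CD55 windows shown lie inside the GENCODE 29 spans of these genes, so RefSeq and GENCODE 29 place their starts differently. A match describes the letters in a window and is not a bound site.

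C3, the component on which all pathways converge (ENSG00000125730.18, chromosome 19, 6677704 to 6730562), was scarce in both groups. The estimated counts of C3 were 46, 18 and 22 in TTC3 shRNA libraries, against 86, 102 and 69 in control libraries. All 3 TTC3 shRNA libraries were below all controls, with replicate 1 nearest to them. C3 was at 0.197 ± 0.0947 CPM in TTC3 shRNA cells and 0.543 ± 0.0851 CPM in control cells (SD, n = 3 each), and it fell by 1.46 ± 0.35 (log2, ± SE; edgeR adjusted p = 0.0194). The call ended without TTC3 shRNA replicate 2 (adjusted p = 0.0617) or 3 (0.0585) and without control replicate 1 (0.0647) or 2 (0.0761) (0.000677 to 0.103 across the settings tried). Of 6 tested genes within 100 kb of C3, 2 were called lower (VAV1 and GPR108) and 3 higher (CD70, SH2D3A and TRIP10). Over all tested genes the shares were 17.8% and 15.7%. GPR108, which overlaps the C3 span on the same strand, was at 32.5 ± 2.52 CPM in TTC3 shRNA cells and 39.3 ± 1.42 CPM in control cells (edgeR adjusted p = 0.0318). GPR108 starts at 6729914, outside C3-201 (6677704 to 6720682 in GENCODE 29), the transcript given all C3 counts.

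C1R and C1S, the proteases of the C1 complex, fell by similar amounts. They lie 9167 bases apart on chromosome 12 on opposite strands, with their ends facing each other (C1S 6988259 to 7071032, C1R 7080199 to 7092607). C1R was at 39.96, 39.5 and 36.9 CPM in TTC3 shRNA libraries, against 57.96, 58.4 and 58.4 CPM in control libraries. The groups were far apart relative to their spread, and C1R fell by 0.59 ± 0.06 (log2, ± SE; edgeR adjusted p = 0.000613). C1S was at 11.2, 11.7 and 12.5 CPM in TTC3 shRNA libraries, against 16.6, 15.6 and 16.6 CPM in control libraries. The 3 TTC3 shRNA libraries were again below all controls, and C1S fell by 0.46 ± 0.08 (SE, edgeR adjusted p = 0.00535). Within a library, C1R counts were 3.56, 3.36 and 2.95 times C1S counts in TTC3 shRNA libraries, against 3.48, 3.74 and 3.51 times in control libraries. This ratio, free of library scaling, overlapped between groups (two-sided exact permutation p = 0.3, 0.4 adjusted over 4 ratios).

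Some neighbours of the C1R and C1S pair also changed, in both directions. C1RL, a C1r-like protease gene that overlaps C1R by 3021 bases on the same strand, was at 4.13 ± 0.370 CPM in TTC3 shRNA cells and 6.68 ± 0.241 CPM in control cells (SD, n = 3 each; adjusted p = 0.00393). Of 9 tested genes within 100 kb of C1R, 5 were called lower (C1S, C1RL, C1RL-AS1, LPCAT3 and CLSTN3) and 0 higher. Of 18 tested genes within 100 kb of C1S, 6 were called lower (these neighbours with C1R in place of C1S, and ENO2) and 3 higher (SPSB2, ATN1 and PHB2). The windows overlap, so these counts are not separate. The shares over all tested genes were 17.8% lower and 15.7% higher. LPCAT3, a phospholipid acyltransferase gene, fell by 0.34 ± 0.10 on the log2 scale, and CLSTN3 fell by 0.25 ± 0.06. Reads shared by C1R and C1RL make the level of each uncertain. The transcript C1R-215 carried most C1R counts and passed over all transcripts (35.9 ± 1.59 CPM in TTC3 shRNA cells, 55.2 ± 0.190 CPM in control cells, adjusted p = 0.0221).

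The fluid-phase regulators were at or near 0. CFI (factor I, chromosome 4) had 0 counts in all 6 libraries, which allows at most 0.00695 CPM over the TTC3 shRNA group and 0.00637 CPM over the control group at 3 counts per group, as the reads were assigned. ENSG00000285330, which overlaps nearly all of CFI on the same strand (109713916 to 109801999), held 0, 20 and 8 counts in TTC3 shRNA libraries, against 12, 0 and 0 in control libraries. If those reads came from CFI, these limits would not hold. SERPING1 (C1 inhibitor, chromosome 11) had 0, 0 and 3 counts in TTC3 shRNA libraries, against 0, 6 and 7 in control libraries. A library without counts was present in both groups. The ratio of scaled counts, TTC3 shRNA over control, was 0.252 (95% exact interval 0.0461 to 0.917, counting error only), and without a filter the edgeR test gave an adjusted p of 0.475. These 2 genes were left out of the test, and a change in either could not be judged at this depth.

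CD59, CD55 and CD46 were the 3 most abundant members by CPM. CD59, the inhibitor of the membrane pore (chromosome 11, 33703010 to 33736491), was at 865, 839 and 825 CPM in TTC3 shRNA libraries, against 1025, 1043 and 1046 CPM in control libraries. The groups did not overlap, and CD59 fell by 0.30 ± 0.06 (log2, ± SE; edgeR adjusted p = 0.00782), to 81.2% of control. The CD59 call ended without control replicate 2 (adjusted p = 0.0550) or 3 (0.0529) (5.19e-06 to 1.00 across the settings tried). ENSG00000284969, a gene whose span overlaps CD59 on the same strand, was at 0.890 ± 0.230 CPM in TTC3 shRNA cells and 2.27 ± 0.0238 CPM in control cells (adjusted p = 0.00344).

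CD46, the membrane cofactor (chromosome 1, 207752057 to 207795513), was at 94.8, 78.2 and 79.9 CPM in TTC3 shRNA libraries, against 109, 106 and 106 CPM in control libraries. All 3 TTC3 shRNA libraries were below all controls, and replicate 1 was nearest to them. CD46 fell by 0.34 ± 0.08 (log2, ± SE; edgeR adjusted p = 0.0202). This call ended without TTC3 shRNA replicate 2 (adjusted p = 0.0788) or 3 (0.0616) and without control replicate 1 (0.0835), 2 (0.0756) or 3 (0.0754) (1.19e-05 to 1.00 across the settings tried).

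CD55, the decay-accelerating factor (chromosome 1, 207321376 to 207386804), lies 365253 bases from CD46. It was at 339.6, 298 and 306 CPM in TTC3 shRNA libraries, against 336, 326 and 327 CPM in control libraries. TTC3 shRNA replicate 1 was above all controls and replicates 2 and 3 were below them. The log2 fold change of CD55 was -0.07 ± 0.07 (SE, edgeR adjusted p = 0.492), with a 95% interval of -0.23 to 0.10 that spans 85.1% to 107% of control. Without TTC3 shRNA replicate 1, CD55 passed as lower (log2 fold change -0.11, adjusted p = 0.0256; range 0.0256 to 1.00 over its alternatives).

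Ratios between the membrane regulators within a library do not depend on how libraries are scaled. CD55 counts were 0.393, 0.356 and 0.371 of CD59 counts in TTC3 shRNA libraries, against 0.328, 0.313 and 0.313 in control libraries. CD46 counts were 0.279, 0.262 and 0.261 of CD55 counts in TTC3 shRNA libraries, against 0.323, 0.326 and 0.324 in control libraries. For both ratios the groups did not overlap, so CD55 took a larger share beside CD59 and CD46 in all 3 TTC3 shRNA libraries. Both ratios hold CD55, so they are not separate observations. Among all tested genes 50.3% did not overlap in CPM, and no such share was computed for ratios. The two-sided exact permutation p was 0.1 for each, the smallest that 3 against 3 libraries allow, and 0.2 adjusted over 4 ratios. CD46 counts were 0.110, 0.0932 and 0.0968 of CD59 counts in TTC3 shRNA libraries, against 0.106, 0.102 and 0.101 in control libraries, which overlapped (exact permutation p = 0.5).

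**Figure D2:**
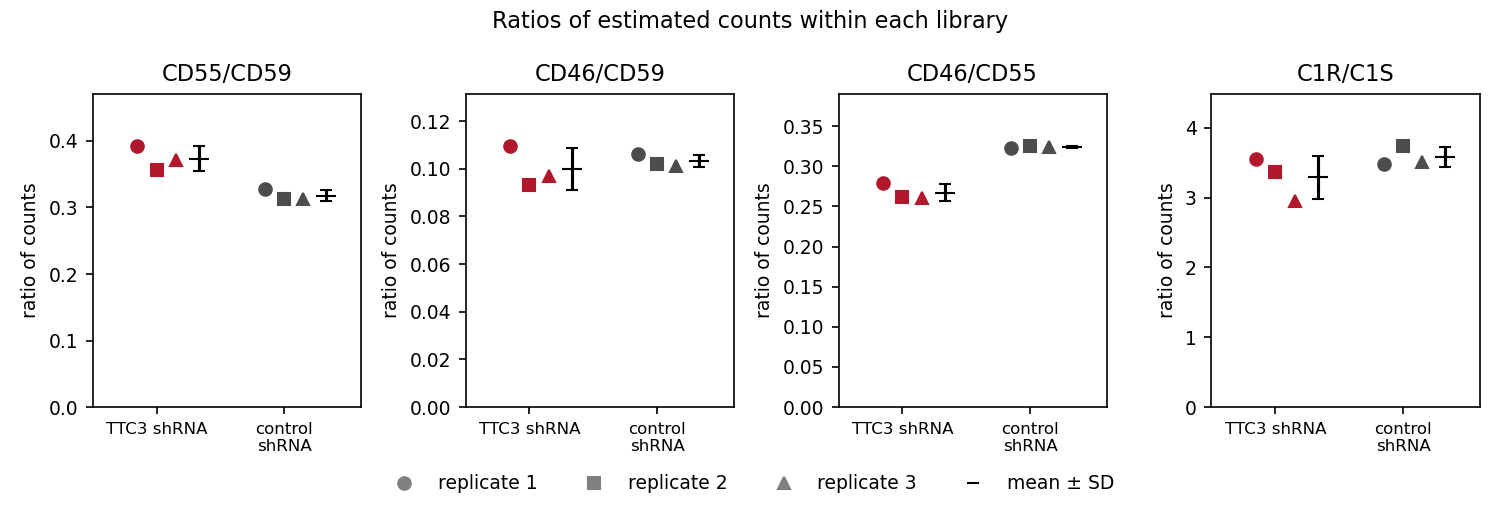
Ratio of estimated counts of 2 genes within a library (y axis, from 0) for CD55/CD59, CD46/CD59, CD46/CD55 and C1R/C1S, in TTC3 shRNA libraries (red, left) and control shRNA libraries (grey, right), with the mean ± SD beside them. The groups are apart for CD55/CD59, where all TTC3 shRNA libraries are higher, and for CD46/CD55, where all are lower.

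Transcript estimates of the membrane regulators were less stable than their gene totals. The table held 46 transcripts of members that were matched by identifier, 34 were tested, and 2 were called lower (CFB-271 and C1R-215) and 0 higher by edgeR. At an unadjusted p below 0.05 the test gave 8 lower and 0 higher. The share of all transcripts at that threshold was not computed, so these counts cannot be set beside it. CD59-202 (737 bases in another version, from GENCODE 29) was at 272, 0.787 and 212 CPM in TTC3 shRNA libraries, against 0.667, 323 and 1.19 CPM in control libraries. This estimate switched between almost none and a high level within both groups, while the CD59 gene total varied little. CD55-213 was at 29.9, 1.42 and 1.56 CPM in TTC3 shRNA libraries, against 45.9, 32.6 and 27.9 CPM in control libraries. ENST00000645323.1, a further CD55 transcript, was at 1.39, 1.45 and 27.4 CPM in TTC3 shRNA libraries, against 35.8, 32.2 and 31.6 CPM in control libraries. Each of these estimates was low in a pair of TTC3 shRNA libraries, but not in the same pair. The main CD55 transcript, CD55-201, was at 144 ± 4.06 CPM in TTC3 shRNA cells and 151 ± 3.95 CPM in control cells (SD, n = 3 each; adjusted p = 0.601). CD46-208 was at 46.4 ± 6.18 CPM in TTC3 shRNA cells and 54.7 ± 5.29 CPM in control cells (adjusted p = 0.381). Because isoforms overlap in sequence, these estimates do not show which isoform changed. The 2 called transcripts were 0 with any control replicate left out, 1 without TTC3 shRNA replicate 2 and 6 without replicate 1.

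**Figure D3:**
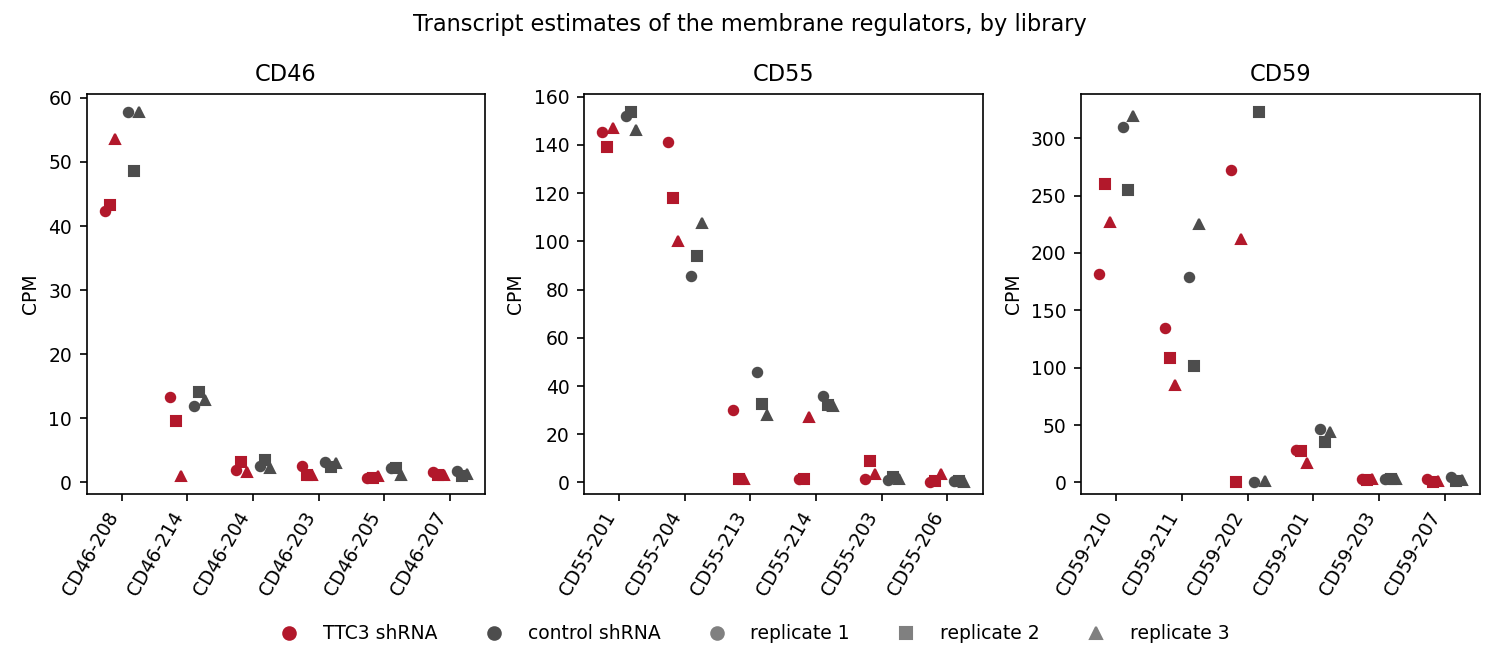
CPM of the 6 matched transcripts of CD46, CD55 and CD59 with the most counts (y axis, a scale for each gene) in TTC3 shRNA libraries (red) and control shRNA libraries (grey), with a symbol for each replicate. CD59-202 is near 0 in TTC3 shRNA replicate 2 and control replicates 1 and 3 and at 212 to 323 CPM in the other libraries.

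Per kilobase of transcript, levels can be set beside each other for the members whose matched transcripts held nearly all of the gene count. Lengths were those of GENCODE 29, which holds another version of some of the transcripts counted, CFB-271 and C3-201 among them. In CPM per kilobase, CD55 was at 132 ± 9.16 in TTC3 shRNA cells and 138 ± 2.31 in control cells (SD, n = 3 each). C1R was at 15.6 ± 0.659 CPM per kilobase in TTC3 shRNA cells and 23.4 ± 0.107 in control cells. C1S was at 4.22 ± 0.231 CPM per kilobase in TTC3 shRNA cells and 5.81 ± 0.207 in control cells. CFB was at 0 in TTC3 shRNA cells and 0.740 ± 0.0570 CPM per kilobase in control cells, and C3 was at 0.0374 ± 0.0180 in TTC3 shRNA cells and 0.103 ± 0.0162 in control cells. In control cells the order of levels per length was therefore CD55, C1R, C1S, CFB and C3, with SERPING1 below them, and neighbours in that order were apart by more than their SD. Matched transcripts held 68.1% to 79.1% of CD46 counts and 48.7% to 71.96% of CD59 counts, so these 2 were not placed in the order.

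The other genes of the cascade were compared from lists of components, regulators and receptors. Of 57 listed genes, 27 were tested, 13 were called lower and 4 higher, with a median log2 fold change of -0.69, also with genes without counts at their bounds. Over all tested genes, 17.8% were called lower and 15.7% higher, and 2080 were called at least 2-fold lower against 711 at least 2-fold higher. Genes with any count numbered 29973 to 30495 per TTC3 shRNA library and 32909 to 33195 per control library. Apart from C1RL and CLU, the listed genes called lower averaged at most 1.18 CPM in control cells. Whether they fell more than other scarce genes was not tested. The filter kept a gene if it was high enough in either group, so the genes tested are not the whole cascade. Among the other components 9 of 15 tested were lower and 1 higher. MASP1, a lectin pathway protease, had 0 counts over the TTC3 shRNA libraries and 178 over the control libraries, at least 54.3-fold lower. The collectin COLEC10 fell by 2.36 ± 0.24 on the log2 scale and COLEC11 by 1.58 ± 0.21 (± SE; edgeR adjusted p = 0.000606 and 0.00188). Both were scarce, at 0.164 and 0.394 CPM in TTC3 shRNA cells, against 0.849 and 1.18 CPM in control cells. FCN3, a ficolin, had 0 counts over the TTC3 shRNA libraries and 74 over the control libraries, at least 22.6-fold lower.

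C5, the source of the C5a peptide and the start of the pore, was at 87.6, 71.5 and 68.9 CPM in TTC3 shRNA libraries, against 86.2, 84.4 and 84.7 CPM in control libraries, which overlapped (adjusted p = 0.235). CFD, factor D, the protease that activates factor B, was the component called higher. It was at 6.45, 12.1 and 13.6 CPM in TTC3 shRNA libraries, against 5.22, 6.14 and 6.33 CPM in control libraries, and rose by 0.86 ± 0.26 (log2, ± SE; edgeR adjusted p = 0.0429). TTC3 shRNA replicate 1 lay close to the controls and replicates 2 and 3 well above them. C4A and C4B, near-identical copies whose reads cannot be told apart, were at 0.787 ± 0.108 and 0.626 ± 0.0774 CPM in TTC3 shRNA cells, against 1.11 ± 0.114 and 0.884 ± 0.110 CPM in control cells, and did not pass (adjusted p = 0.0644 and 0.0744).

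Of 7 other regulators tested, 3 were lower and 2 higher. Clusterin, CLU, which binds the terminal complex, was at 141 ± 13.8 CPM in TTC3 shRNA cells and 173 ± 1.38 CPM in control cells (adjusted p = 0.0318). C1QBP, a mitochondrial protein that also binds C1q, was at 135 ± 12.8 CPM in TTC3 shRNA cells and 95.6 ± 0.658 CPM in control cells (adjusted p = 0.00395), and CSMD2 rose by 2.34 ± 0.16 on the log2 scale. Of 5 receptors tested, the integrin chain ITGB2 rose to 9.89 ± 1.80 CPM in TTC3 shRNA cells, against 2.31 ± 0.111 CPM in control cells (edgeR adjusted p = 0.000176). Its partner ITGAM fell by 1.58 ± 0.33 on the log2 scale (edgeR adjusted p = 0.0108). ITGAM was scarce, at 0.119 CPM in TTC3 shRNA cells and 0.360 CPM in control cells.

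**Figure D4:**
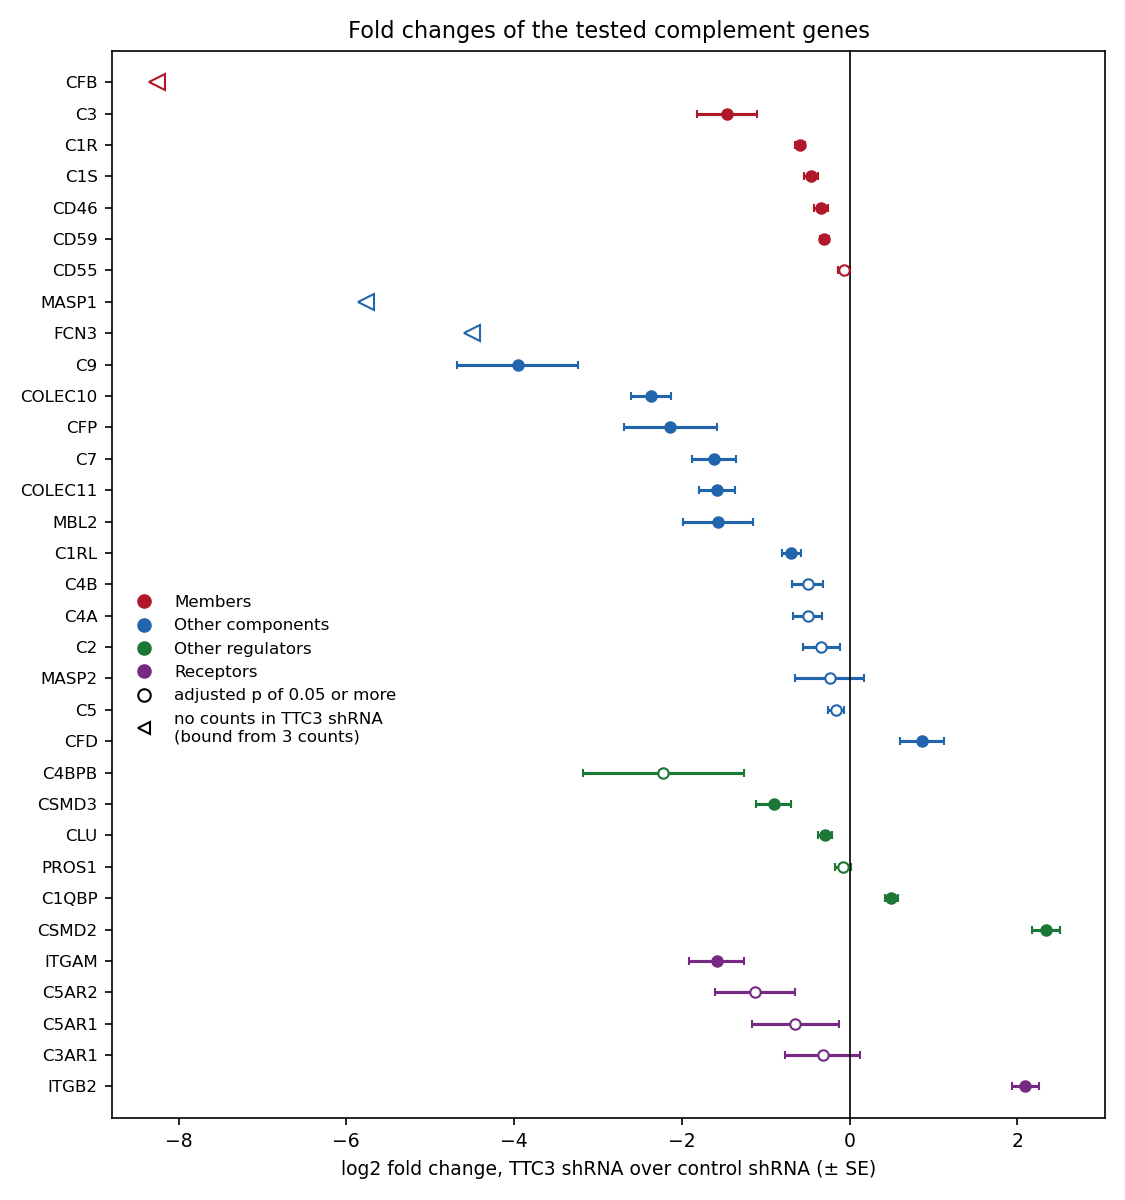
Log2 fold change, TTC3 shRNA over control shRNA, ± SE (x axis) for the 7 tested members (red) and 26 other tested complement genes (blue, green and purple), with open circles for an adjusted p of 0.05 or more and open triangles for genes without counts in TTC3 shRNA libraries, drawn at the bound from 3 counts. CFB lies farthest to the left, CD55 is the open red circle near 0, and 4 genes, CFD, C1QBP, CSMD2 and ITGB2, are called to the right of 0.

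Markers of cell types that make complement were examined beside these values. The summed level of 12 macrophage and leukocyte markers was 16.8 to 38.6 CPM in TTC3 shRNA libraries and 14.2 to 18.7 CPM in control libraries. Of 5 tested, 1 was called higher and 3 lower. CD68, which many cells express, was the higher one and gave most of the sum, at 28.6 ± 11.4 CPM in TTC3 shRNA cells and 14.1 ± 2.34 CPM in control cells. The lower ones were CD14 (0.351 CPM in TTC3 shRNA cells and 0.890 CPM in control cells), MRC1 (0.214 CPM in TTC3 shRNA cells and 0.558 CPM in control cells) and LYZ (0.0321 CPM in TTC3 shRNA cells and 0.574 CPM in control cells). CD3E, MS4A1, CD163 and TYROBP were at 0 in all 6 libraries. The 10 hepatocyte markers summed to 7.64 to 9.14 CPM in TTC3 shRNA libraries and 4.68 to 5.13 CPM in control libraries, with APOC3 and FGA at 0 and SERPINA1 giving most of the sum. Of 4 tested, SERPINA1 and AHSG were called higher and APOA1 lower (adjusted p = 0.0151). The 8 fibroblast markers summed to 105 to 161 CPM in TTC3 shRNA libraries and 42.8 to 44.7 CPM in control libraries, mostly COL1A1 and PDGFRA, with DCN at no more than 8 counts in any library. Of 6 tested, COL1A1 and PDGFRA were called higher and LUM lower (adjusted p = 0.0209). The 6 endothelial markers summed to 55.4 to 62.4 CPM in TTC3 shRNA libraries and 45.8 to 47.0 CPM in control libraries, mostly KDR, with CDH5 at 0. Of 4 tested, KDR was called higher and PECAM1 lower, at 3.00 ± 0.492 CPM in TTC3 shRNA cells and 4.99 ± 0.484 CPM in control cells (adjusted p = 0.0119). The shares called over all tested genes were 17.8% lower and 15.7% higher. The part of these cell types in the complement values was not tested.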

How the data were processed

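The deposited tables hold estimated counts of genes and of transcripts for 6 libraries. The values are whole numbers with no scaling between libraries. StringTie, STAR, Trim Galore and the hg38 build are named in the submitters' processing notes. Their settings, the annotation release and whether strand was used were not found in these sources. Libraries were grouped and numbered by title. Positions, lengths and transcript identities came from GENCODE 29 on GRCh38, matched by identifier without its version number. Of 98286 transcripts matched, 75224 had the same version, and positions and lengths of the others may differ from those counted.

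The estimated counts needed no rounding. The test was edgeR's (4.0.16, under R 4.3.3), with the default filterByExpr filter (minimum count 10, minimum total 15), TMM scaling, glmQLFit and glmQLFTest over the 6 libraries without a block, and Benjamini-Hochberg adjustment over all 24325 genes or 53805 transcripts. SE is the size of the log2 fold change divided by the square root of F. Each library was counted as a replicate. Between replicates, counts differed by 4.14 to 54.1 times sampling noise (median of a chi-square over genes). The largest values, 42.1 and 54.1, were for pairs with TTC3 shRNA replicate 1. This spread may be technical and does not show that the libraries came from separate cultures. The procedure was also run on counts simulated from its own fit, with far fewer genes changed than were called here. That run does not test the scaling or the calls under the differences in RNA makeup between these libraries. Alternatives were other scalings, DESeq2 1.42.0, limma-voom (limma 3.58.1), other filters and thresholds, a replicate block, removal of a transcript length trend, and each library left out. The counts of 2 overlapping genes were also added to CFB and CFI, a setting chosen after seeing the data.

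The members, gene lists and rules were chosen with earlier results of these data known. By rule, the genes named were the members, TTC3, up to 4 called genes per other list (2 by level where none passed), tested genes within 100 kb of a member, the 3 nearest profiles to CFB and CD46, and transcripts of members of at least 1 CPM. The text names fewer than the rule gives; C5, C4A, C4B, CLU, ITGAM, C2 and the marker genes named for their level were otherwise chosen after their values were seen. The values of 1 regulator are not reported here, though it is in the list's counts.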

Additional observations from a re-analysis of the deposited data

How the results depend on the processing

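The 6 members called lower were 1 when tested against a fold of 1.5 and 3 to 7 with 1 library left out, and 6 with the length trend removed and with library totals alone, which shifted the median of all genes by -0.13 each. No member was called higher under any of the 18 alternatives and no member's log2 fold change changed sign. Against a fold of 1.5, C3 (-1.46), C1R (-0.59), C1S (-0.46), CD46 (-0.34) and CD59 (-0.30) no longer passed, and at an adjusted p of 0.01 C3 and CD46, at the same values, did not. With 1 library left out the log2 fold change was -1.91 to -1.24 for C3, -0.42 to -0.29 for CD46, -0.31 to -0.27 for CD59 and -0.11 to -0.03 for CD55 (-0.0279 at the upper end). The other complement genes called lower were 13, and 8 with at least 50 counts in 3 libraries (17 tested), 7 against a fold of 1.5 and 8 at an adjusted p of 0.01; those called higher were 4, and 2 against a fold of 1.5. Among all genes tested, 4338 were lower, and 1567 against a fold of 1.5, 2394 at an adjusted p of 0.01 and 2711 to 7065 with 1 library left out. The 3827 higher genes were 2518 with library totals alone, 466 against a fold of 1.5, 1688 at an adjusted p of 0.01 and 1835 to 6674 with 1 library left out. Where no cause follows from a stricter threshold or fewer libraries, the cause was not tested. With a replicate block the 6 members stayed past the threshold (CFB adjusted p = 0.00219, CD59 adjusted p = 0.0332), while the 2 transcripts called lower became 0, and they were 0 to 6 with 1 library left out. The numbers were not taken as pairs in the main test because the labels do not say that they mark a shared culture or day. Same-numbered libraries correlated in their deviations from the group means by 0.17, 0.18 and 0.03, and differently numbered ones by -0.19 to 0.07. The same-numbered values for replicates 1 and 2 were the highest, and these correlations do not settle whether the libraries were paired. With the counts of overlapping genes added to CFB and CFI, chosen after seeing the data, CFB had a log2 fold change of -4.05 (adjusted p = 0.00757), the 6 members stayed past the threshold and CFI remained too low to test. Depth limits CFI and SERPING1, with 0 and 16 counts in all.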

Other observations

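CD55 and CD59 are held in the membrane by a glycosylphosphatidylinositol anchor. Of 30 listed genes for making and attaching this anchor, 29 were tested, 4 were called higher and 2 lower, with a median log2 fold change of 0.01. Among all tested genes, 15.7% were called higher and 17.8% lower. GPAA1, a subunit of the transamidase that attaches the anchor, was at 155, 219 and 233 CPM in TTC3 shRNA libraries, against 117, 129 and 133 CPM in control libraries (edgeR adjusted p = 0.0136). All 3 TTC3 shRNA libraries were above all controls, with replicate 1 nearest to them. PIGX rose by 0.38 ± 0.08 and PIGW by 0.37 ± 0.09 on the log2 scale, while PIGB, a mannosyltransferase, was at 6.95 ± 1.79 CPM in TTC3 shRNA cells and 11.8 ± 0.117 CPM in control cells (adjusted p = 0.0154).

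Profiles were compared among 11662 genes with a mean of at least 5 CPM. A profile was the log2 CPM in the 6 libraries relative to the gene's own control mean, so changes and not levels were compared. By Euclidean distance, the genes with profiles nearest to CD46 were FAM8A1 (0.0327), HCCS (0.0341) and MAP3K13 (0.0413). Those nearest to CFB were IFI16 (1.53), GALC (1.54) and GPR65 (2.36), where the distance depends on the pseudocount of 0.01 CPM because CFB had no counts in TTC3 shRNA libraries.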
